A study of Mus musculus with 8 samples.

Results

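The Bmi1 locus was read as 5 of the 50398 transcript intervals counted by H3K27me3 ChIP-seq. These are 3 nested isoform intervals of Bmi1, 1 interval of its upstream neighbour Commd3 and 1 of its downstream neighbour Gm46725, all on mouse chromosome 2. An interval was taken when its span matched the RefSeq gene (build GRCm38.p6, the assembly behind mm10) with an overlap over union of at least 0.5. The 5 matches lay between 0.797 and 1, and 0 other intervals overlapped any of the 3 genes. The locus was chosen by its high H3K27me3 density in these same libraries, so its levels are described here and not tested.

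The cells were mouse embryonic stem cells of the E14tg2a line (129SV background) that stably express cRAF-ErT2, a RAF kinase switched on by 4-hydroxytamoxifen (4OHT) to drive ERK signalling. Clones A and B were each taken after 2 h of 250 nM 4OHT and untreated (0 h), which gives 2 libraries per time and 2 per clone. Both times share the same culture, serum with LIF and 2 µM Chir99021, replaced for the last 24 h by serum with LIF and 250 nM PD173074, an FGF receptor inhibitor. Both clones derive from 1 line, and no RNA was counted in the table, so neither Bmi1 expression nor stem cell markers could be read alongside the mark. The 4 input libraries were not analysed here. Column totals ran from 70378127 to 92518605 counts.

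BMI1, also called PCGF4, is a core subunit of Polycomb repressive complex 1 (PRC1), where it partners the RING1 ubiquitin ligases that modify histone H2A. H3K27me3 is placed by the separate complex PRC2 and is bound by the CBX subunits of PRC1, so the mark helps to bring PRC1 to silent developmental genes. BMI1 is known for keeping blood and neural stem cells dividing by repressing the Cdkn2a locus. COMMD3 belongs to the COMMD proteins, which act in endosomal sorting. Gm46725 is a RefSeq gene model with a predicted transcript on the opposite strand, to which no role is assigned here.

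The promoters of the 3 genes differ in their content of CG dinucleotides, the site of DNA methylation and the main component of CpG islands, where PRC2 is known to act. The 250 bases before each RefSeq start (build GRCm38.p6) are shown because they lie shortly before the counted interval of each gene. At Commd3 most of them also lie inside the counted interval of the noncoding RNA Gm33355, chr2:18668574-18672401. The bases are printed 5′ to 3′ on the gene's strand, with every CG in capitals. Commd3 lies at chr2:18672185-18672434 (plus strand), Bmi1 at chr2:18676768-18677017 (plus strand) and Gm46725 at chr2:18690732-18690981 (minus strand).
Commd3: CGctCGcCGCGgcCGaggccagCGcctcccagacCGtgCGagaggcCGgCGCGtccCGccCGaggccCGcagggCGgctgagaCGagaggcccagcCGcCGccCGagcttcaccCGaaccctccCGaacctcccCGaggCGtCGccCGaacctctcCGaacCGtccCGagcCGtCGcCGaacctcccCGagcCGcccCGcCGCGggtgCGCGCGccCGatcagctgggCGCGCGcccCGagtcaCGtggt
Bmi1: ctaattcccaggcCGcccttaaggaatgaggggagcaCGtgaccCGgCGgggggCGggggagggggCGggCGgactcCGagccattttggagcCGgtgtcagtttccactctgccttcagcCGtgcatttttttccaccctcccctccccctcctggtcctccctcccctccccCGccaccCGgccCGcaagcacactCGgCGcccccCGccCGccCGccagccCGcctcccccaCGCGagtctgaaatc
Gm46725: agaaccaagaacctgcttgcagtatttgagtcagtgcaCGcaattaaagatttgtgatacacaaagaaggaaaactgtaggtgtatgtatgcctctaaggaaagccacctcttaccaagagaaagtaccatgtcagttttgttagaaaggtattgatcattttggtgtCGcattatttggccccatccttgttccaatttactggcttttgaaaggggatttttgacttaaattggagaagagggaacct
The printed stretches hold 45 CGs for Commd3, 21 for Bmi1 and 2 for Gm46725. In the full RefSeq window of 300 bases, which adds 50 bases after the start, the motif CG (its own reverse complement) occurred 51 times at Commd3, 23 times at Bmi1 and 4 times at Gm46725. Those counts stood at percentiles 99.4, 79.2 and 34.7 of the 32851 windows in the table, of which 94.6% held at least 1 CG and whose median was 7. The order of CG content was thus the reverse of the order of H3K27me3 density given next, over 3 genes. CG content was counted at promoters and density over whole intervals, so these orders describe different stretches. H3K27me3 over the printed bases was not measured on its own, and a relation was not tested. Corrected for C and G content, the percentile was 71.6 for Bmi1.

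H3K27me3 was dense over all 5 intervals, least over Commd3 and most over Gm46725. Densities are given as counts per kb, scaled to 1000000 counts in all intervals of a library, and the median named gene stood at 0.357. The longest Bmi1 interval, chr2:18677018-18686629, spans the whole gene. It measured 4.42 in clone A and 3.62 in clone B at 2 h, against 5.03 in clone A and 3.71 in clone B at 0 h. Both clone A libraries were higher than both clone B libraries, while the 2 times overlapped. The mean over the 4 libraries was 4.19 ± 0.662 (SD), 11.8 times the median gene. It ranked 121 of 18985 named genes of at least 1000 bp, so 0.632% of them were denser. The shorter Bmi1 intervals, of 8931 and 7656 bases, averaged 4.46 ± 0.716 and 4.52 ± 0.76. They end at the same base as the longest interval and share its reads.

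Commd3 (chr2:18672462-18676216) measured 2.67 in clone A and 3.0 in clone B at 2 h, against 3.11 in clone A and 3.16 in clone B at 0 h. Both libraries at 2 h were lower than both at 0 h, and the clones overlapped. Its mean of 2.99 ± 0.22 (SD, n = 4) was 8.37 times the median gene, rank 321. Gm46725 (chr2:18687502-18690731) measured 5.23 in clone A and 5.38 in clone B at 2 h, against 5.69 in clone A and 4.93 in clone B at 0 h. Neither times nor clones were separated there. Its mean of 5.31 ± 0.316 was 14.9 times the median, rank 10. Gaps of 801 bases between Commd3 and Bmi1 and 872 bases between Bmi1 and Gm46725 keep the reads of the 3 genes apart.

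**Figure D1:**
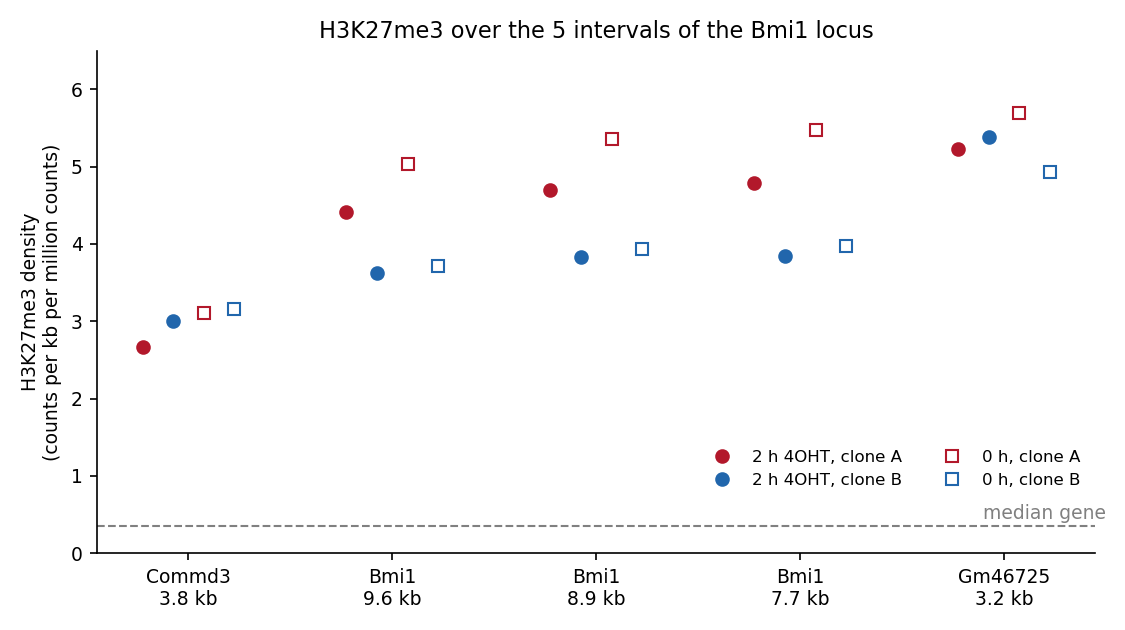
H3K27me3 density (counts per kb per 1000000 counts) in each of the 4 libraries for the 5 intervals of the locus, in chromosome order, with interval lengths; filled circles are 2 h, open squares 0 h, red clone A and blue clone B. The clones separate over the 3 Bmi1 intervals and overlap over Commd3 and Gm46725, and every point lies above the median gene at 0.357.

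Subtracting nested intervals showed where along the locus the reads lay, and the start of Bmi1 stood out as sparse. The first 681 bases of the longest Bmi1 interval (chr2:18677018-18677698) held 48 counts in clone A and 47 in clone B at 2 h, against 33 in clone A and 41 in clone B at 0 h. That is a density of 0.751 ± 0.0509 (SD, n = 4), 2.1 times the median gene. Exact 95% Poisson intervals of the 4 libraries, which cover counting error only, lay between 0.474 and 1.08. The next 1275 bases (chr2:18677699-18678973) measured 4.16 in clone A and 3.71 in clone B at 2 h, against 4.66 in clone A and 3.72 in clone B at 0 h. The remaining 7656 bases measured 4.79 and 3.85 at 2 h, against 5.47 and 3.97 at 0 h, in clones A and B in that order. In every library the first stretch was below Commd3 upstream and below the rest of Bmi1 downstream. Reads that straddle the border of 2 nested intervals may count toward the inner one, and no input counts over the 681 bases were set beside them, so the part of chromatin yield or of mapping was not tested.

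Density was again high over the first part of Spag6, which encodes a protein of the sperm tail axoneme. The stretch found only in the longer Spag6 interval is 5152 bases, of which 141 lie at the far end of the gene and the rest at chr2:18694011-18699021. It measured 4.30 in clone A and 3.79 in clone B at 2 h, against 4.65 in clone A and 4.10 in clone B at 0 h, close to Bmi1. No interval covers the 3279 bases between Gm46725 and Spag6, so the level across them was not measured. The inner Spag6 interval, chr2:18699022-18749605, averaged 0.799 ± 0.0226 (SD, n = 4). On the other side, the noncoding RNA Gm33355, which lies on the opposite strand just before Commd3, averaged 2.42 ± 0.207, 6.77 times the median. A fragment spanning the short gap between Gm33355 and Commd3 can count toward both.

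**Figure D2:**
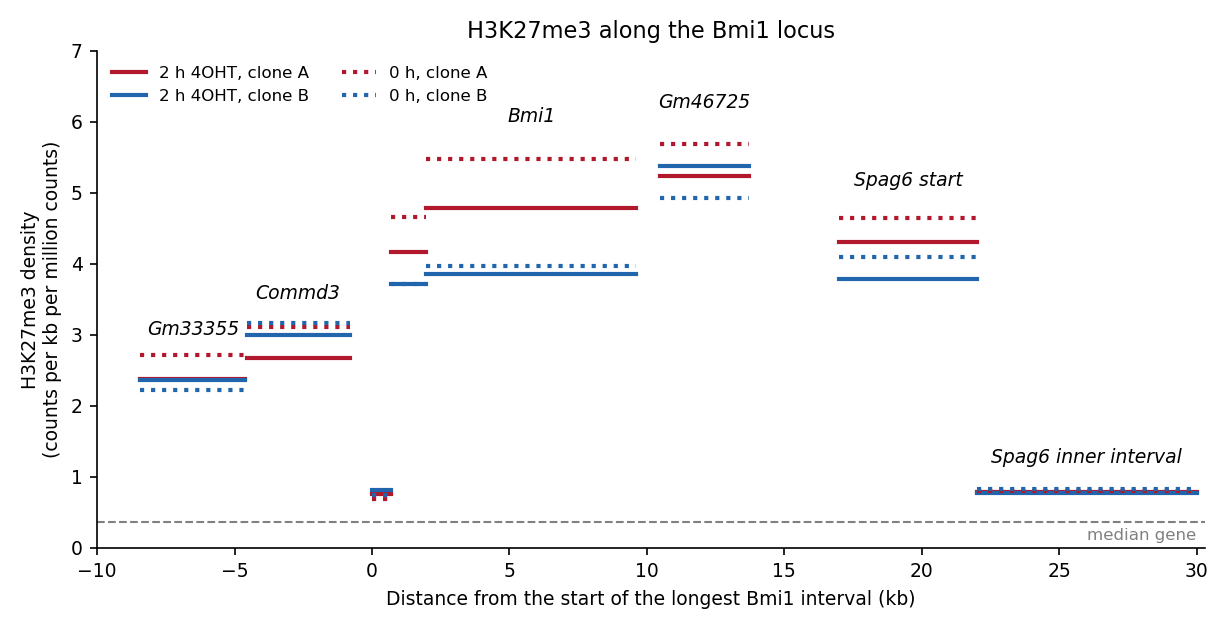
H3K27me3 density (counts per kb per 1000000 counts) over stretches of the locus by distance in kb from the start of the longest Bmi1 interval; solid lines are 2 h, dotted lines 0 h, red clone A and blue clone B, and the Spag6 inner interval is drawn only in part. Density is 0.751 on average over the first 681 bases of Bmi1, 4.52 over its last 7656 bases, 5.31 over Gm46725 and 0.799 over the inner Spag6 interval.

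Clone A carried more H3K27me3 over Bmi1 than clone B, and the adjoining Commd3 and Gm46725 did not pass the same test. The rule for choosing the locus did not use this contrast. Bmi1 averaged 4.73 ± 0.426 in clone A and 3.66 ± 0.0683 in clone B (SD, n = 2 each). The log2 difference, clone A over clone B, was 0.38 (SE 0.055, 95% interval 0.28 to 0.49; adjusted p = 9.59e-11 by edgeR's quasi-likelihood test over all intervals). It was 0.33 at 2 h and 0.43 at 0 h, so clone A was higher at both times. The 2 shorter Bmi1 intervals gave 0.39 and 0.41, from the same reads. Commd3 averaged 2.89 ± 0.308 in clone A and 3.08 ± 0.113 in clone B, with a log2 difference of −0.08 (95% interval −0.22 to 0.06; edgeR adjusted p = 0.458). Gm46725 averaged 5.46 ± 0.324 in clone A and 5.16 ± 0.316 in clone B, with a log2 difference of 0.10 (95% interval −0.03 to 0.23; edgeR adjusted p = 0.27).

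The clone difference at Bmi1 has to be read against a broad one. Of 50037 intervals tested, 17.3% were called higher and 10.3% lower in clone A. Among the 1155 tested genes at 4 times the median density or more, named dense genes below, 52.6% were called higher and 2.94% lower in clone A, with a median log2 difference of 0.19. Of these genes 15.2% had a log2 difference at least as large as that of Bmi1. A call higher in clone A was thus the most frequent outcome for genes of such density. The part in the Bmi1 value of whatever moved dense genes as a group was not tested.

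Ratios within a library need no scaling between libraries. The density of Bmi1 over that of Commd3 was 1.66 at 2 h and 1.62 at 0 h in clone A, against 1.2 at 2 h and 1.17 at 0 h in clone B. The exact 95% binomial intervals, for counting error only, reached down to 1.5 in clone A and up to 1.3 in clone B. The ratio averaged 1.64 ± 0.027 in clone A and 1.19 ± 0.0213 in clone B (SD, n = 2 each), further apart than the spread within either clone. Bmi1 over Gm46725 was 0.845 and 0.883 in clone A, against 0.672 and 0.753 in clone B (2 h, then 0 h). Bmi1 over Gm33355 was 1.86 at both times in clone A, against 1.53 at 2 h and 1.67 at 0 h in clone B. In each of the 3 ratios the clone A values lay above the clone B values. Taken over both times, the counting intervals kept the clones apart for the ratio to Commd3 and overlapped for the others. For Gm46725 they reached down to 0.797 in clone A at 2 h and up to 0.804 in clone B at 0 h. Within each time they were apart for Gm46725. For Gm33355 they were apart at 2 h. At 0 h they overlapped, reaching down to 1.71 in clone A and up to 1.82 in clone B. The two-sided exact permutation test gave p = 0.333 for each of the 3 ratios, which is the smallest p that 2 against 2 libraries allow.

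Along the locus, log2 differences of at least 0.18 at both times lay over the body of Bmi1 and the first part of Spag6. Over the first 681 bases the log2 difference, clone A over clone B, was −0.05 at 2 h and −0.11 at 0 h, on 33 to 48 counts. It was 0.21 and 0.32 over the second stretch and 0.36 and 0.46 over the last 7656 bases, at 2 h and 0 h in that order. Over the first part of Spag6 it was 0.23 and 0.18, and over the inner Spag6 interval 0.08 and −0.05. Gm33355 gave 0.06 and 0.28, Commd3 −0.13 and −0.03, and Gm46725 0.00 and 0.20. Differences between stretches were not tested.

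Of the 28 other named genes that reach within 1 Mb of Bmi1, 8 stood at 4 times the median density or more, against 5.76% of all named genes. The densest of the 28 were Ptf1a, a regulator of pancreas and hindbrain fate, at 14.0 times, and the noncoding RNA Carlr at 11 times. Ptf1a starts 768.6 kb downstream of the Bmi1 start, and Carlr, on the minus strand, starts 124.8 kb downstream of it. Skida1, also on the minus strand, stood at 4.95 times and starts at −628.6 kb on the same scale. Others were sparse, such as Mllt10 at 0.296 and Pip4k2a at 0.915 times.

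Between clones, 6 of these 28 neighbours were called higher and 4 lower in clone A. These shares, 21.4% and 14.3%, stand near the 15.4% and 10.1% of all named genes. Skida1 and the 3 intervals beside it, Gm33085, A930004D18Rik and Gm17762, were higher by 0.51 to 0.71 on the log2 scale; these intervals partly overlap and share reads. Carlr was higher by 0.21 (edgeR adjusted p = 0.0227) and Ptf1aos, which overlaps Ptf1a, by 0.22 (edgeR adjusted p = 0.00387). Gm3230, Otud1, Msrb2 and Armc3 were the 4 called lower, with log2 differences of −1.14, −0.68, −0.29 and −0.21. Ptf1a itself gave 0.19 (edgeR adjusted p = 0.0528).

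**Figure D3:**
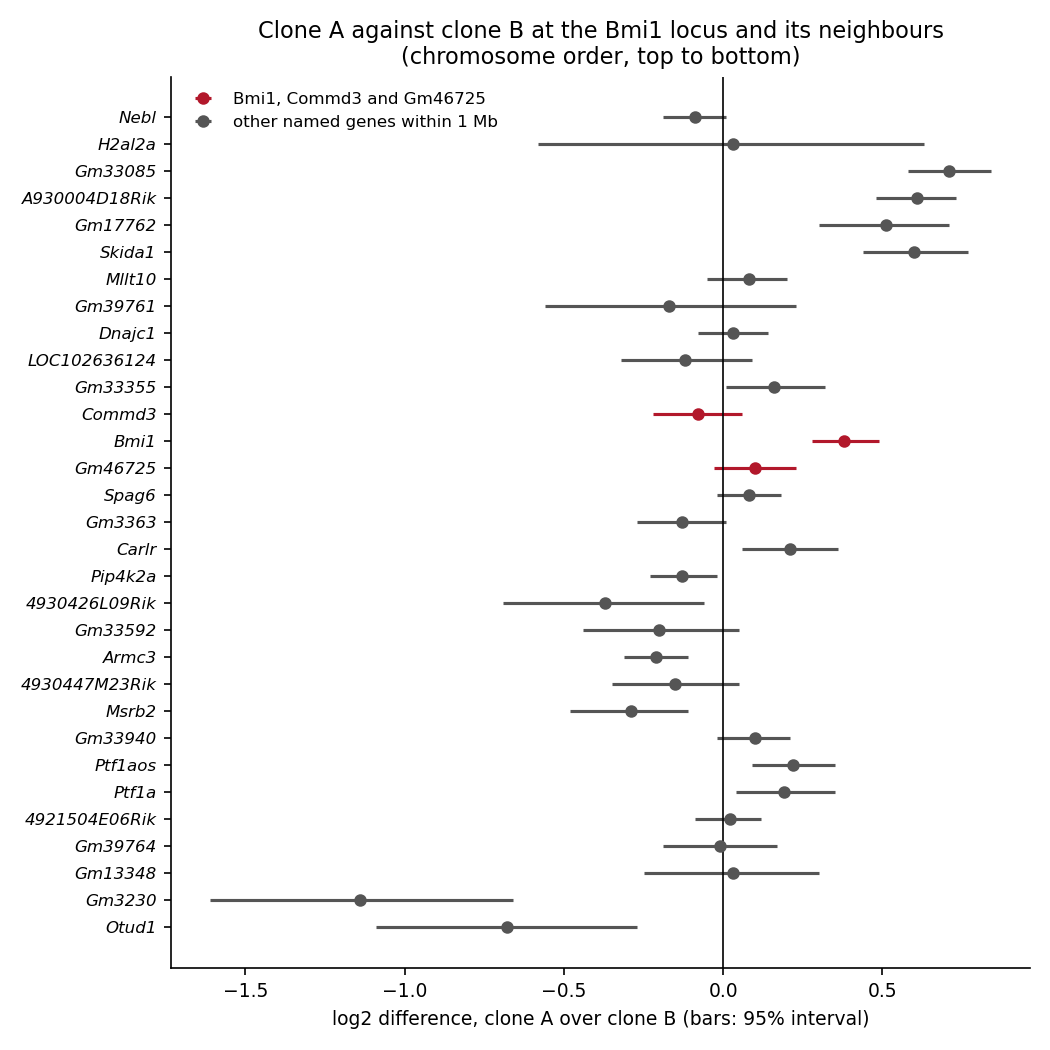
Log2 difference in H3K27me3 counts, clone A over clone B, for the 3 genes of the locus (red) and other named genes within 1 Mb (grey), in chromosome order from top to bottom; points are edgeR estimates and bars 95% intervals, n = 2 libraries per clone. Bmi1 lies at 0.38 with its interval above 0, between Commd3 at −0.08 and Gm46725 at 0.10.

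No interval of the locus passed the test after 2 h of 4OHT, and neither did any of the 50037 tested (0% called higher and 0% lower by edgeR, 188 at an unadjusted p under 0.05; DESeq2 called 0, with 2 at that level). Bmi1 averaged 4.02 ± 0.572 at 2 h and 4.37 ± 0.93 at 0 h (SD, n = 2 each), giving a log2 change of −0.12 (SE 0.172, 95% interval −0.53 to 0.29). Clone A gave −0.16 and clone B −0.06. Commd3 averaged 2.84 ± 0.234 at 2 h and 3.13 ± 0.039 at 0 h, giving a log2 change of −0.15 (95% interval −0.42 to 0.12), with −0.20 in clone A and −0.10 in clone B. Gm46725 averaged 5.31 ± 0.103 at 2 h and 5.31 ± 0.537 at 0 h, with −0.10 in clone A and 0.10 in clone B.

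Pairing the libraries by clone narrowed the 95% intervals without giving a call over all intervals tested. It put 2078 of them at an unadjusted p under 0.05 by edgeR. The unpaired fit, whose spread includes the difference between clones, put 188 there. In the paired fit the log2 change of Bmi1 was −0.12 (95% interval −0.22 to −0.01; unadjusted p = 0.033 by edgeR, adjusted p rounding to 1). For Commd3 the paired interval of the log2 change was −0.30 to −0.00 and for Gm46725 −0.13 to 0.13. Fitted with clone as a block on dense genes alone, 1 interval per gene and 4 times the median or more, Bmi1 passed as lower at 2 h with a log2 change of −0.15 (edgeR adjusted p = 0.0401). In that fit 0.434% of 1153 genes were called lower and 0.173% higher. With all 2456 dense intervals the value was again −0.15 (edgeR adjusted p = 0.0367), beside 0.366% called lower and 0.448% higher. Commd3 had log2 changes of −0.18 (edgeR adjusted p = 0.098) and −0.17 (edgeR adjusted p = 0.0849) in the same fits and Gm46725 −0.03 in both, so the estimate at Bmi1 was no larger than that at Commd3. Fits on dense genes alone were chosen after the data were seen. They measure change relative to other dense genes, and Bmi1 passed in neither fit of the whole table. Within clones, the ratios of Bmi1 to Commd3 at 2 h and 0 h given above each lay inside the counting interval of the other.

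By density over the whole interval, Bmi1 was the densest of the Polycomb genes measured. Lengths differ widely, with 9612 bases at Bmi1 against 123792 at Bcor and 1104662 at Auts2. Marked stretches of a long gene are averaged over all of it. Spag6, for instance, stood at 11.8 times the median over its first part and at 3.12 times as a whole. Parts of the other Polycomb genes were not compared. Of 40 other PRC1 and PRC2 genes listed, 23 were measured, with a median density 0.348 times the median gene. None of the 23 reached 4 times the median. The densest were Phf19, an accessory subunit of PRC2, at 2.83 times (1.01 ± 0.0476, SD, n = 4) and Bcor, a corepressor in a noncanonical PRC1, at 2.77 times (0.99 ± 0.0116). Pcgf1 and Pcgf3, paralogs of Bmi1 that define other forms of PRC1, stood at 0.701 and 0.276 times. Rnf2, the RING1B ligase that BMI1 partners, stood at 0.269 times, and Ezh2 and Eed of PRC2 at 0.26 and 0.257 times. Of the 23, 20 matched a RefSeq promoter window, with 4 to 39 CGs and a median of 22, against 23 at Bmi1.

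Over 2 h, 0 of these 23 genes passed in either direction, with a median log2 change of 0.01 against 0.00 over all named genes. Between clones, 2 passed as higher in clone A and 0 as lower, 8.7% against 15.4% and 10.1% of all named genes. Leaving out clone A at 0 h gave 4 higher, and 1 passed as lower with DESeq2, with column totals as the scaling, with time as a block or without clone B at 2 h. The 2 were Bcorl1 at 0.51 (SE 0.059) and Fbrsl1 at 0.47 (SE 0.068) on the log2 scale. Both lie near or under the median level, at 1.11 and 0.469 times. Cdkn2a and Cdkn2b, the cell cycle inhibitor genes that BMI1 is known to repress, went the other way from Bmi1 between clones. Cdkn2a averaged 1.52 ± 0.0838 in clone A and 2.43 ± 0.0684 in clone B, with a log2 difference of −0.66 (SE 0.055; edgeR adjusted p = 1.33e-30). Cdkn2b averaged 1.17 ± 0.149 in clone A and 2.19 ± 0.0435 in clone B, with a log2 difference of −0.90 (SE 0.084; edgeR adjusted p = 5.02e-24). Being called lower in clone A placed them among the 2.94% of dense genes. A relation of these values to the level at Bmi1 was not tested.

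**Figure D4:**
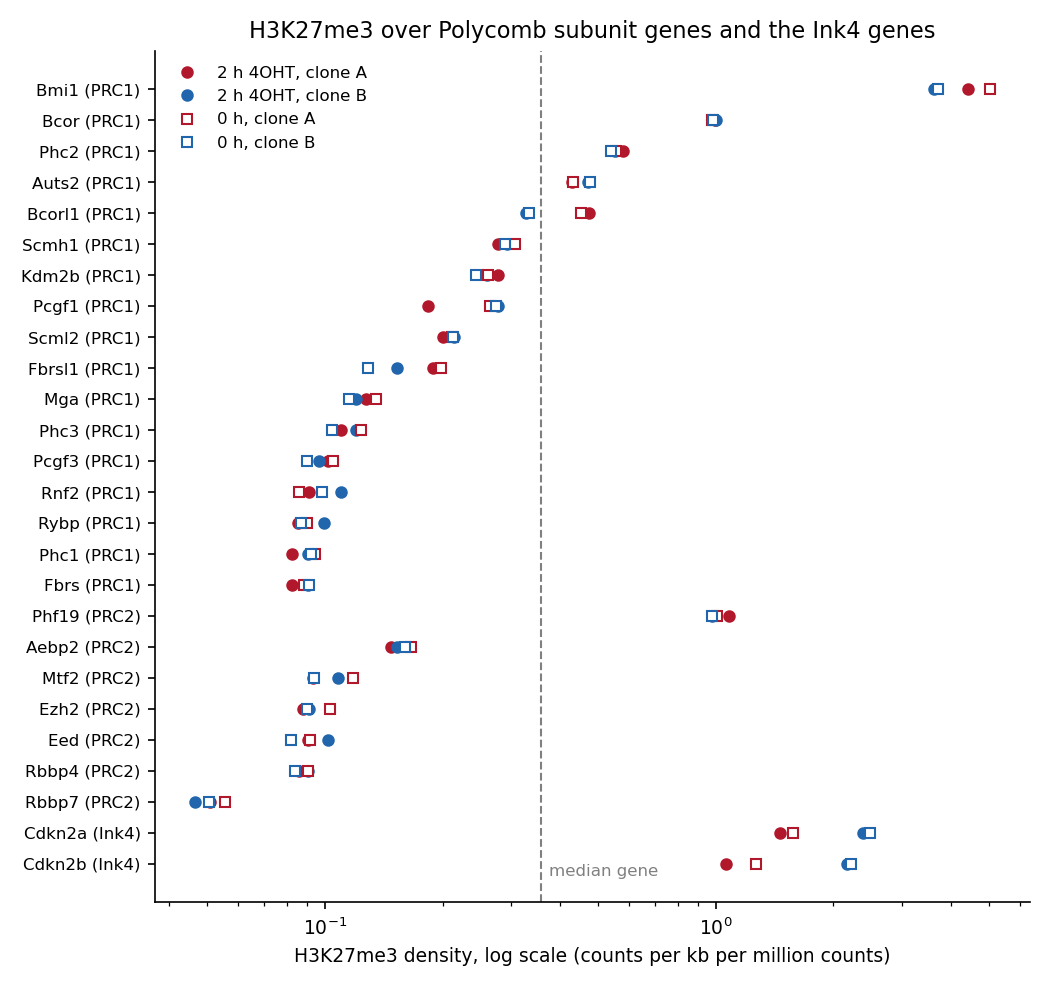
H3K27me3 density (counts per kb per 1000000 counts, log axis) in each of the 4 libraries for Bmi1, the 23 other measured PRC1 and PRC2 genes and the Ink4 genes Cdkn2a and Cdkn2b; filled circles are 2 h, open squares 0 h, red clone A and blue clone B. Over whole intervals of unlike length, Bmi1, at 11.8 times the median gene, is the densest gene shown. Clone A is higher at Bmi1 and lower at Cdkn2a and Cdkn2b.

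The genes whose levels in the 4 libraries were closest to those of Bmi1, among 18982 named genes of at least 1000 bp, were Gm5294, Dmrta2os, LOC102637806 and Adm. Euclidean distances of their log2 densities ran from 0.157 to 0.174. Adm encodes the vasoactive peptide adrenomedullin, and Dmrta2os is an antisense noncoding RNA. Their mean densities lay between 4.22 and 4.30 (4 libraries each). All 4 of these genes had higher density in clone A than in clone B at both times, a pattern that the choice by likeness favours.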

How the data were processed

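H3K27me3 ChIP-seq was available for 4 libraries, 2 h of 4OHT and 0 h in clones A and B, fixed in 1% formaldehyde for 10 min per the labels. Per the file headers, the authors deposited raw counts of reads over each transcript interval, introns included. Bowtie2, bedtools and build mm10 are named per the submitters' processing notes; the sources used here do not give their settings. Another 12 per-library columns were left aside. Overlapping intervals share reads, whatever their strand, and column totals therefore do not measure sequencing depth.

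Intervals were named by overlap with RefSeq spans (at least 0.5 of the union and 0.2 more than the next gene), which named 43783 intervals and 20218 genes; gene values come from the best matching interval. Counts of all intervals were tested with edgeR 4.0.16 (quasi-likelihood, TMM factors, filterByExpr, 50037 intervals left) and Benjamini-Hochberg adjustment, called at 0.05. DESeq2 1.42.0, other factors, no filter, blocks and leaving out each library were alternatives. R 4.3.3, Python 3.11.15 and SciPy 1.17.1 were used, and the fits were tested on simulated data. Clone letters pair the libraries, since the labels give the same clones at both times; deviations of same-clone libraries from the mean of each time correlated at r = 0.514 over the 50037 intervals. With both clones from 1 line, p-values reflect only the spread between these libraries, which may be technical. Reads carry no molecular identifiers, and intervals for counts cover counting error only.

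The members, the Polycomb list, the window of 1 Mb and the rule for genes of like level were chosen with earlier results of these data known. Named genes were the 3 members, the named genes within 1 Mb, the listed Polycomb genes and the 5 genes nearest in log2 density over the 4 libraries. The result for 1 of those 5 is not reported here. The ratios within libraries, the background of dense genes and the fits on dense genes alone were added after seeing the data.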

Additional observations from a re-analysis of the deposited data

Results flagged for a closer look

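At Gm46725 and at 2 intervals beside the locus the clones differed in the sign of the change over 2 h, by small amounts. With 1 library per clone and time the differences were not tested. At Gm46725 clone A gave a log2 change, 2 h over 0 h, of −0.10 and clone B 0.10, a difference of −0.20. At Gm33355, upstream of Commd3, clone A gave −0.17 and clone B 0.06, a difference of −0.22. At the inner Spag6 interval clone A gave 0.00, above 0 only before rounding, and clone B −0.12, a difference of 0.13.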

How the results depend on the processing

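The higher level at Bmi1 in clone A kept its direction under all 9 alternatives run (log2 difference 0.30 to 0.47). It passed in those that kept all 4 libraries (adjusted p from 8.34e-11 to 1.64e-06 by edgeR or DESeq2), where Commd3 and Gm46725 did not. Without a library, the log2 difference of Commd3 ran from −0.18 to 0.02. All 9 were scaled over intervals of every density, so none set Bmi1 against dense genes alone. Fits on dense genes alone were run over time and not between clones. Calls between clones were 5731 higher and 3049 lower in clone A with DESeq2, against 8633 and 5132, and 5252 to 8087 and 3414 to 4398 with 1 library left out.

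Over 2 h, the replicate block gave −0.12 for Bmi1 and 0 calls. Fits with the block on dense intervals alone, where fewer intervals are tested, called 11 higher and 9 lower, and Bmi1 passed at −0.15; with 1 interval per gene they called 2 and 5, and Bmi1 again gave −0.15. Leaving out a library gave 0 higher and 0 to 1 lower calls. The log2 change then ran from −0.33 to 0.11 for the longest Bmi1 interval, −0.33 to 0.11 and −0.35 to 0.12 for the shorter ones, −0.24 to −0.09 for Commd3 and −0.11 to 0.10 for Gm46725; of these, Commd3 alone kept its direction. Such a fit leaves 1 clone alone at a time, so time and clone are confounded. The mean Bmi1 density moved by less than 1 SD under the 6 alternatives run. The CG percentile, corrected for base content, was 71.6 against 79.2 at Bmi1.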
